A study of Homo sapiens with 2 samples.

Results

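Total RNA sequencing of 2 human ovarian cancer lines, unlike in their BRCA1 status, found 32 genes at 1 FPKM or more in the BRCA1-deficient line and below 0.2 FPKM in the BRCA1-expressing line. FPKM counts sequenced fragments per transcript length and per library size. The BRCA1-deficient line is UWB1.289, an established ovarian carcinoma line whose genotype label is BRCA1 Knockout, and the BRCA1-expressing line is its partner, a sample titled UWBBRCA whose cell line label reads UWABRCA1 and whose genotype label is WT. Both are tumour cells that received no treatment and were grown in the same medium, and the labels give 1 sample for each and name no clone or separate cultures. The 32 members were chosen by these same FPKM values, so their levels are a description and were given no test. Of the 1806 genes that the authors listed as different between the lines, 41 (2.27%) met both thresholds, and 9 of those were left out by gene name, either as ZNF, COL or CDH family genes or as single genes that the rule sets aside. The opposite pattern, at 1 FPKM or more with BRCA1 and below 0.2 FPKM without it, was met by 43 listed genes (2.38%). Exclusion by the same names and by chromosome part leaves 37 of them, called the mirror set. The parts left out are chromosome 18, chromosome 9 before base 80000000 and chromosome 12 before base 21000000. They took away 0 of the 41 genes above.

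BRCA1 is a tumour suppressor of DNA repair by homologous recombination. Several members belong to systems with known wiring: EVC and IFT27 serve the primary cilium, where Hedgehog signals are relayed, and ARMCX2 and BEX1 belong to a cluster of related X-linked genes with brain-rich expression.

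The label "near silent" fits the values in the BRCA1-expressing line, whereas "on" covers low levels in the deficient line. Members ranged from 1.03 to 5.03 FPKM in the deficient line, with a median of 1.65 FPKM, and from 0 to 0.194 FPKM in the BRCA1-expressing line, with a median of 0.0816 FPKM. Listed genes that were higher in the deficient line had a median of 4.75 FPKM there. IFT27 alone reached 5 FPKM, and 22 of the 32 were below 2 FPKM. The values are the authors' means per line, so no spread or n is given, and in RNA from a whole culture fewer expressing cells and less RNA per cell cannot be told apart.

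BRCA1 itself had 5.63 FPKM in the deficient line against 22.03 FPKM in the BRCA1-expressing line, so the library labelled as a knockout still held BRCA1 fragments. As a background for marker counts, 6.99% of all features the authors tested passed their threshold, and 53.5% of listed genes were higher in the deficient line. The 6.99% is 2716 of 38868 features, whereas 1798 of the 1806 listed genes are protein coding. The share among tested protein-coding genes is unknown, so counts of listed names beside 6.99% cannot be read as enrichment. Leukocyte markers were not listed, at 0 of 10. Of 10 endothelial markers, 3 were listed, each higher in the deficient line, with summed levels of 42.5 FPKM there and 11.96 FPKM in the BRCA1-expressing line. Of 10 fibroblast markers 3 had a row, all lower, of 10 neuronal markers 6, split 3 and 3, and of 10 muscle markers 1, which was lower. Of 12 serous ovarian carcinoma markers 5 had a row, 2 higher and 3 lower. The markers without a row, which include the leukocyte antigen PTPRC and the endothelial genes PECAM1 and VWF, were not analysed here.

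**Figure D1:**
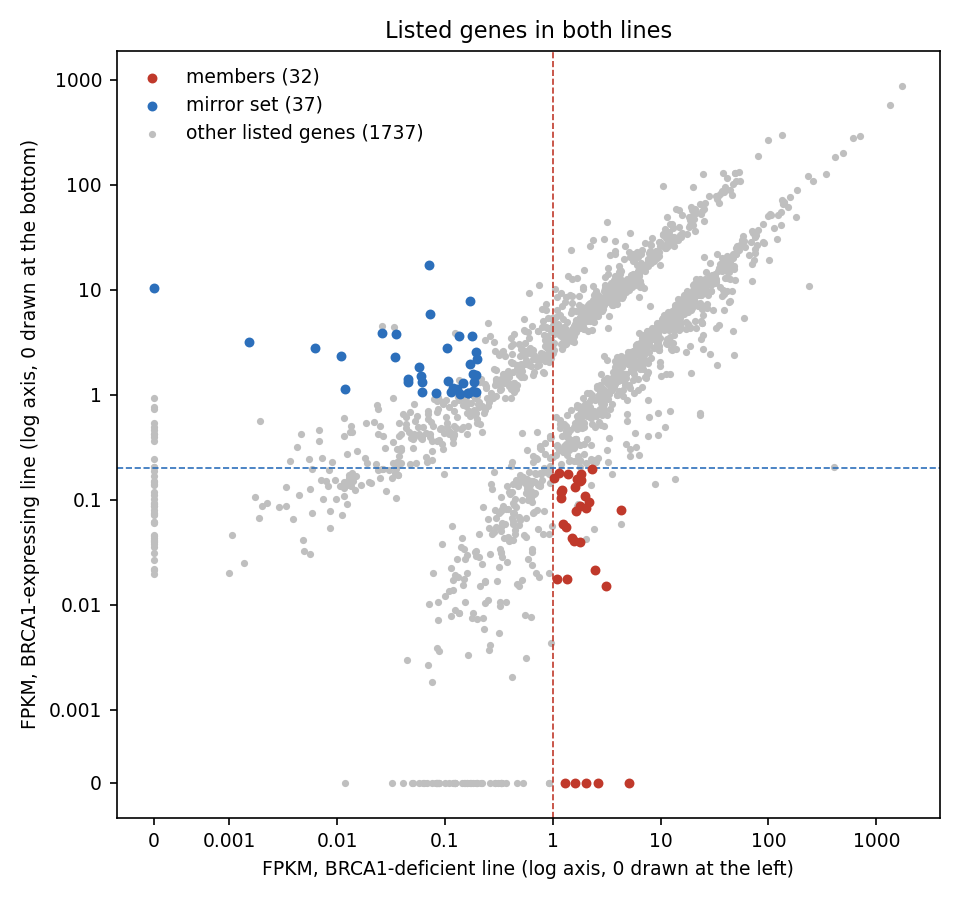
FPKM of each listed gene in the BRCA1-deficient line (horizontal) and the BRCA1-expressing line (vertical), both on log axes with values listed at 0 drawn at the edge; dashed lines mark 1 and 0.2 FPKM. The 32 members (red) fill the lower middle with none above 5.03 FPKM in the deficient line, the mirror set (blue) lies opposite, and grey points are the other listed genes, including the 9 left out by name; the gap along the diagonal is where genes were not called different.

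Promoters are shown first for the genes whose partners moved with them, since EVC and EVC2 lie head to head and HOXC4 shares its start with HOXC5, and for IFT27, the member with the highest level. Each window runs from 250 bases before to 50 bases after the start of transcription, from RefSeq on GRCh38.p14, and capitals mark CG pairs, the sites of DNA methylation. EVC is at chr4:5710951-5711250 on the plus strand, EVC2 at chr4:5708510-5708809 on the minus strand, IFT27 at chr22:36776070-36776369 on the minus strand and HOXC4 at chr12:54016638-54016937 on the plus strand.
EVC: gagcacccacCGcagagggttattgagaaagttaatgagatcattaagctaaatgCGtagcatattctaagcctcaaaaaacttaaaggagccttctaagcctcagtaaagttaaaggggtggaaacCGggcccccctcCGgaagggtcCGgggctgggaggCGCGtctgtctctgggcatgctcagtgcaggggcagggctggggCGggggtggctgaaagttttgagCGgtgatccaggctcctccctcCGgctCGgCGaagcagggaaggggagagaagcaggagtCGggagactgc
EVC2: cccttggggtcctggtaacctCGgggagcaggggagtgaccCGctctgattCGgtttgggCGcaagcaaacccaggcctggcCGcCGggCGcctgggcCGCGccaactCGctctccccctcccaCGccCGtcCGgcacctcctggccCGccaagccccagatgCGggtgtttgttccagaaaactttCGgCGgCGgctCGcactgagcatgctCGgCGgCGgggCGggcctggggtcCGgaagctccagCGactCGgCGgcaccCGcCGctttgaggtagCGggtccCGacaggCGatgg
IFT27: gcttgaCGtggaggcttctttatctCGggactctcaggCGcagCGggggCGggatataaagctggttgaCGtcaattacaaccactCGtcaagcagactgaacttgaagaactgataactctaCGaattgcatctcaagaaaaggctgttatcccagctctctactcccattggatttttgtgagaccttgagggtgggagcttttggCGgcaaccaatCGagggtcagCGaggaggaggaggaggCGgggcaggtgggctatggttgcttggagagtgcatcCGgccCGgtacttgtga
HOXC4: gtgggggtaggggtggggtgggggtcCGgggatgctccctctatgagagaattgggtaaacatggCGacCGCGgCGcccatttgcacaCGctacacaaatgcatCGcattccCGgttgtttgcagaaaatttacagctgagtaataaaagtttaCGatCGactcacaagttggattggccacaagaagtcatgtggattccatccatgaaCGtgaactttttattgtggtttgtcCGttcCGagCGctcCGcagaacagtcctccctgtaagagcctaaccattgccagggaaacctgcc
The EVC window holds 13 CG pairs and the EVC2 window 32, against a median of 14 over 27305 RefSeq promoters. IFT27 has 14 and HOXC4 has 15. The GC box GGGCGG, searched on both strands, is in the EVC, EVC2 and IFT27 windows and in 44.6% of all promoters. CCAAT, on either strand, is in the IFT27 and HOXC4 windows and in 35.7% of all promoters, and TATAAA is in the IFT27 window and in 11.95% of all promoters. Promoters were found for 20 of the 32 members, which is 62.5%, so a comparison of promoter composition over the whole set would be void and was not made.

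The second set of promoters belongs to the X-linked genes. It shows a 14-base run, GCCCTCACGTGACC, that ARMCX2 and BEX1 share just before their starts, and BHLHB9 is a listed neighbour that moved the other way. Capitals mark CACGTG, a motif known as an E-box. ARMCX2 is at chrX:101659801-101660100 and BEX1 at chrX:103064122-103064421, both on the minus strand, and BHLHB9 is at chrX:102720493-102720792 on the plus strand.
ARMCX2: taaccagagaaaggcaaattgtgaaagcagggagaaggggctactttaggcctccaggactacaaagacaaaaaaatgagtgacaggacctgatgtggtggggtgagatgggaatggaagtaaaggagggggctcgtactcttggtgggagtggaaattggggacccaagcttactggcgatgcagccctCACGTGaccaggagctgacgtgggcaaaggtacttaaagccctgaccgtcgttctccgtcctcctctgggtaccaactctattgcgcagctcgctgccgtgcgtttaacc
BEX1: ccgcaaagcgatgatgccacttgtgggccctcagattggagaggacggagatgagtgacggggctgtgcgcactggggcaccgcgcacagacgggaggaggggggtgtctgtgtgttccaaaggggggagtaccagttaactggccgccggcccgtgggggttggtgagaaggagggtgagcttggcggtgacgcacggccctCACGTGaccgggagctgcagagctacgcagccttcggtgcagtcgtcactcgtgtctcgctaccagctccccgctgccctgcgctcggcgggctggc
BHLHB9: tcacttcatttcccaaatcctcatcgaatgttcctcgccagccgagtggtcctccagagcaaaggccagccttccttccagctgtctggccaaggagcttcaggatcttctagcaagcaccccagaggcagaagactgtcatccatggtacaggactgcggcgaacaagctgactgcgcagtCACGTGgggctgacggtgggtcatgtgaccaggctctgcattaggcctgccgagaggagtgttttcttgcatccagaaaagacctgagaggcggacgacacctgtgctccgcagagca
CACGTG reads the same on both strands and overlaps the run. It begins 60 bases before the start in ARMCX2, 47 bases before it in BEX1 and 68 bases before it in BHLHB9. It was chosen for the search after the ARMCX2 and BEX1 windows had been read. Of 27305 promoters, 2030 (7.43%) hold CACGTG. The run was picked as the longest stretch that the ARMCX2 and BEX1 windows share, so both hold it by definition. These 2 are the only promoters with the full run on either strand, and that count is a description, not a test. Among the ARMCX, GPRASP, BEX and TCEAL genes, 21 had a promoter in the table and 13 of those hold CACGTG. The windows of GPRASP1 and GPRASP2 do not hold these letters.

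EVC and IFT27, the members that serve the primary cilium, were among the clearest on/off genes. EVC (ENSG00000072840, chromosome 4, 5711201 to 5814305, plus strand, GRCh38) had 2.47 FPKM in the deficient line against 0.0213 FPKM in the BRCA1-expressing line, a 116-fold ratio. EVC encodes a membrane protein at the base of the cilium that, in a complex with EVC2, relays Hedgehog signals downstream of Smoothened, and loss of either gene causes Ellis-van Creveld syndrome. In the authors' deposited table EVC had a log2 fold change of 6.57 and an adjusted p of 4.31e-29, the lowest of the 32 members. IFT27 (ENSG00000100360, chromosome 22, 36758202 to 36776256, minus strand), a small GTPase of the intraflagellar transport machinery that helps move Hedgehog components out of the cilium, had 5.03 FPKM in the deficient line and was listed at 0 in the BRCA1-expressing line. Its adjusted p in the authors' deposited table was 4.50e-24, and no fold is given against a value of 0. IFT27 was the single IFT gene with a row.

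EVC2 showed the pattern of EVC at a lower level. It had 0.562 FPKM in the deficient line against 0.00308 FPKM in the BRCA1-expressing line, so it missed the threshold of 1 FPKM. Its start lies 2642 bases from that of EVC on the opposite strand. The authors' deposited table gave EVC2 a log2 fold change of 6.90 with an adjusted p of 5.50e-16.

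Of 26 names in a list of Hedgehog signalling and EVC zone genes, 9 were listed, while 6.99% of all features the authors tested passed their threshold. That base is wider than protein-coding genes, so the count cannot be read as enrichment. Of these 9 genes, 6 were higher and 3 lower in the deficient line, beside 53.5% higher over all listed genes. EVC is among the 6 by the rule. The median log2 difference of FPKM + 1 over the 9 was 0.42, beside 0.20 over all listed genes. HHIP, a membrane antagonist that binds Hedgehog ligands and is a target of the pathway, had 7.77 FPKM in the deficient line against 0.611 FPKM in the other. The receptor PTCH1, also a pathway target, had 6.36 FPKM in the deficient line against 3.88 FPKM in the other, and the transcription factor GLI3 had 3.20 FPKM in the deficient line against 2.14 FPKM in the other. The ligand SHH stayed low, at 0.306 FPKM in the deficient line against 0.0169 FPKM in the BRCA1-expressing line. GLI1, a transcription factor and a widely used readout of Hedgehog activity, went the other way, with 0.00336 FPKM in the deficient line against 0.133 FPKM in the other. The ligand release factors DISP1 (1.25 FPKM in the deficient line, 3.02 FPKM in the other) and SCUBE2 (0.0168 FPKM in the deficient line, 0.139 FPKM in the other) were lower as well. The pathway's listed genes were thus divided, with the targets HHIP and PTCH1 higher and the target GLI1 lower. GLI1 and SCUBE2 were below 0.2 FPKM in both lines, so their direction rests on values near the floor. The authors' deposited table gave adjusted p-values of 6.76e-17 for HHIP, 0.0492 for PTCH1 and 0.0296 for GLI1.

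ARMCX2 and BEX1 were the X-linked family members that were on in the deficient line. ARMCX2 (ENSG00000184867, chromosome X, 101655281 to 101659850, minus strand), an armadillo-repeat protein of a family that includes proteins of the mitochondrial outer membrane, had 1.10 FPKM in the deficient line against 0.0174 FPKM in the BRCA1-expressing line, a 62.9-fold ratio. BEX1 (ENSG00000133169, chromosome X, 103062651 to 103064171, minus strand), a small adaptor protein of neuronal signalling, had 1.03 FPKM in the deficient line against 0.161 FPKM in the other, a 6.42-fold ratio. They lie 1.40 Mb apart and are the members closest to the threshold of 1 FPKM. With both columns scaled to equal totals over the 1806 listed genes, ARMCX2 and BEX1 had 0.811 and 0.766 FPKM in the deficient line, below that threshold. Those totals cover only genes called different, so they are not library totals. In the authors' deposited table the adjusted p was 2.14e-14 for ARMCX2 and 0.00216 for BEX1, the highest of the 32.

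The GPRASP genes, which lie between ARMCX2 and BEX1, went the opposite way. GPRASP1, which sorts G protein-coupled receptors to lysosomes, had 0.0978 FPKM in the deficient line against 0.175 FPKM in the BRCA1-expressing line. For GPRASP1 a log2 fold change of -3.05 stands in the authors' deposited table, larger than these levels give. GPRASP2, of the same family, had 0.0434 FPKM in the deficient line against 0.527 FPKM in the other. BHLHB9, also named GPRASP3, had 0.429 FPKM in the deficient line against 2.02 FPKM in the other. Of the 26 names in the list, which counts older and newer symbols, 5 were listed. Of all features tested, a wider base than protein-coding genes, 6.99% passed the authors' threshold. Of the 5, 2 were higher, both members by the rule, and 3 lower, at a median log2 difference of -0.10. Over all listed genes 53.5% were higher. ARMCX2 and BEX1 were thus higher at both ends of a stretch whose 3 listed GPRASP genes were lower.

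**Figure D2:**
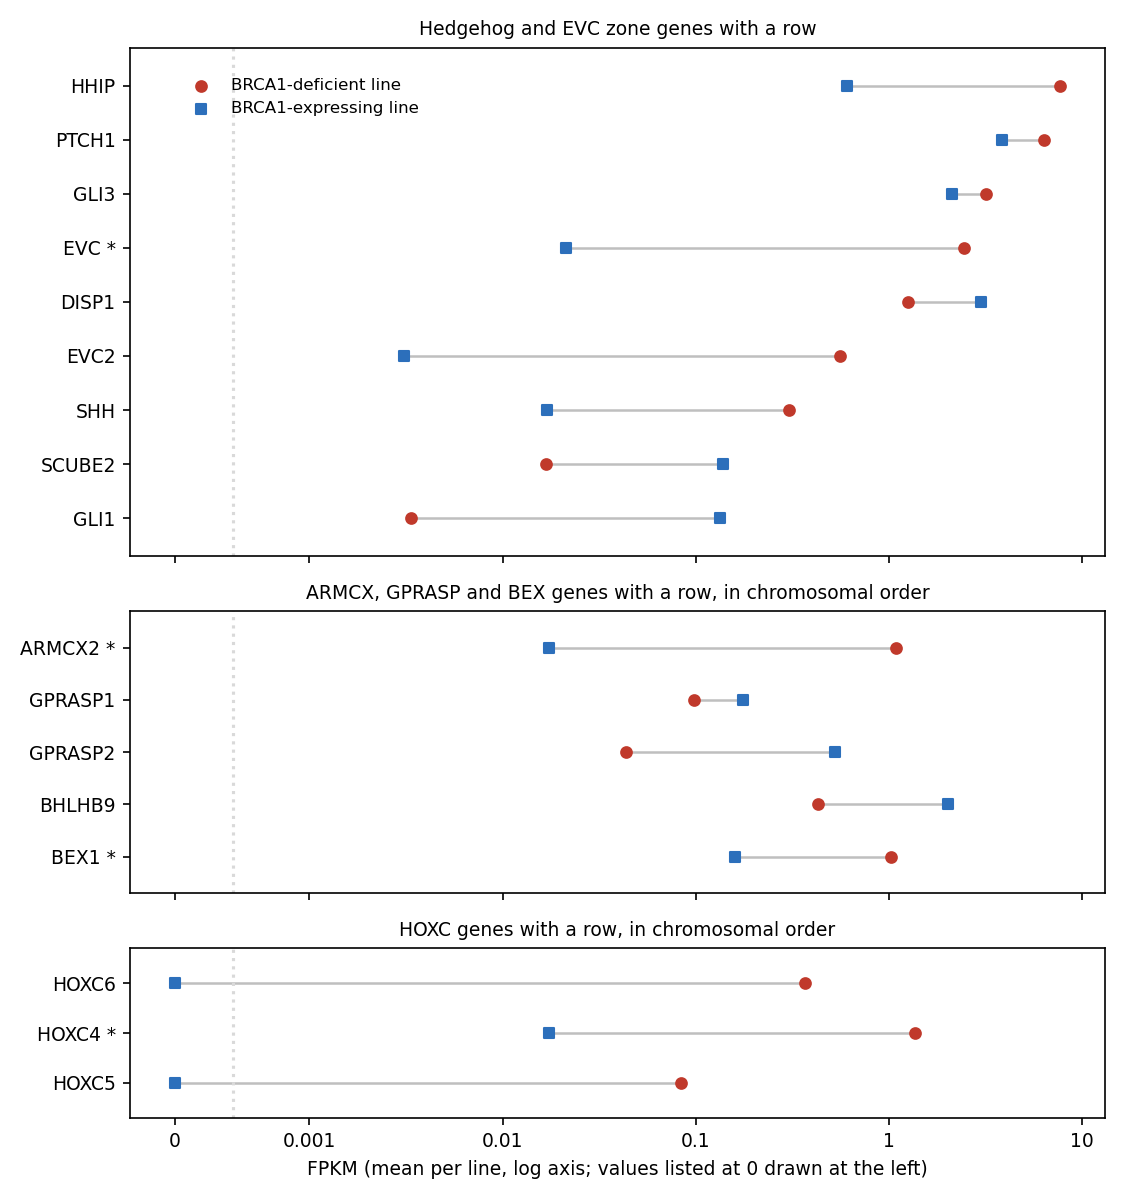
FPKM (log axis, values listed at 0 drawn at the left) of the listed relatives of EVC, of ARMCX2 and BEX1, and of HOXC4, in the BRCA1-deficient line (red circles) and the BRCA1-expressing line (blue squares); asterisks mark members. EVC2 and both other HOXC genes lie to the same side as their member, whereas the 3 GPRASP family genes lie to the opposite side from ARMCX2 and BEX1.

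HOXC4, a homeobox transcription factor of body patterning, had 1.36 FPKM in the deficient line against 0.0174 FPKM in the BRCA1-expressing line, a 78.4-fold ratio. Its neighbours HOXC6 (0.369 FPKM) and HOXC5 (0.0840 FPKM) were low in the deficient line and listed at 0 in the other. HOXC4 shares exons with both on its strand, and the RefSeq promoter windows of HOXC4 and HOXC5 are identical, so reads of the 3 genes can be assigned to more than 1 of them. The authors' deposited table gave HOXC4 an adjusted p of 3.27e-11. The other members in signalling act in kinase and Wnt pathways. DUSP9, a phosphatase that switches off MAP kinases, had 1.66 FPKM in the deficient line against 0.158 FPKM in the other. DACT2, a Dishevelled-binding protein that dampens Wnt signalling, had 1.495 FPKM in the deficient line against 0.0431 FPKM in the other. FAM83A, a scaffold that promotes signalling from the EGF receptor, had 1.64 FPKM in the deficient line against 0.0786 FPKM in the other. Their relatives were not uniform: DUSP5 and DUSP7 were higher, DUSP16 was lower, and DACT3 was lower at 0.0672 FPKM in the deficient line against 0.256 FPKM in the other.

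Proteins of the cell surface and of defence made up 8 of the 32 members, between 1.21 and 2.30 FPKM in the deficient line. Roles were assigned to the members alone, so no share over all listed genes stands beside this count. TNFRSF8, a TNF receptor family member of activated lymphocytes, had 1.29 FPKM in the deficient line and was listed at 0 in the other. TNFRSF14, the herpesvirus entry mediator that binds BTLA, had 1.79 FPKM in the deficient line against 0.152 FPKM in the other. Among the 6 TNFRSF genes with a row 5 were higher, beside 53.5% of all listed genes, and TNFRSF8 and TNFRSF14 are among the 5 by the rule. The others include TNFRSF1B, which lies close to TNFRSF8 on chromosome 1, at 0.326 FPKM in the deficient line against 0.00981 FPKM in the other. ADGRE2, an adhesion G protein-coupled receptor of myeloid cells, had 2.16 and 0.0953 FPKM in the deficient and the BRCA1-expressing line. HCAR1, a receptor for lactate, had 2.30 FPKM in the deficient line against 0.194 FPKM in the other, the value closest to the limit of 0.2. Its neighbour HCAR3 had 0.122 FPKM in the deficient line against 0.00881 FPKM in the other, and HCAR3 can share reads with its close copy HCAR2. SCARF1, a scavenger receptor for modified lipoproteins, had 1.21 FPKM in the deficient line against 0.124 FPKM in the other, and its relative SCARF2 was higher as well, at 7.74 FPKM in the deficient line against 3.40 FPKM in the other. LY6E, a lipid-anchored protein induced by interferon, had 1.78 FPKM in the deficient line against 0.0399 FPKM in the other. VNN1, an enzyme that releases pantothenate from pantetheine at the cell surface, had 1.81 FPKM in the deficient line against 0.153 FPKM in the other. DEFB4B, an antimicrobial defensin, had 1.59 FPKM in the deficient line and was listed at 0 in the other. Its near-identical copy DEFB4A had 23.1 FPKM in the deficient line against 0.636 FPKM in the other, so the split of reads between the copies is uncertain. Several of these receptors are known from leukocytes, and leukocyte markers had no row.

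NOS3, PDE2A and GJA4, genes known from the vascular endothelium, were on together. NOS3, the endothelial nitric oxide synthase, had 2.05 FPKM in the deficient line against 0.0842 FPKM in the BRCA1-expressing line. The NOS3 locus overlaps that of ATG9B, at 0.274 FPKM in the deficient line against 0.127 FPKM in the other. PDE2A, a phosphodiesterase that breaks down cyclic AMP and is activated by cyclic GMP, had 2.01 FPKM in the deficient line against 0.108 FPKM in the other. GJA4, a connexin of arterial gap junctions, had 1.59 FPKM in the deficient line against 0.0402 FPKM in the other. The endothelial markers KDR (3.15 FPKM in the deficient line, 0.298 FPKM in the other), EGFL7 (25.98 FPKM in the deficient line, 7.03 FPKM in the other) and CDH5 (13.4 FPKM in the deficient line, 4.64 FPKM in the other) moved the same way, and their part in these values was not tested. FLT1 and HEG1, also known from endothelium and chosen after their values were seen, went the other way. The VEGF receptor FLT1 had 0.196 FPKM in the deficient line against 2.17 FPKM in the other, and HEG1 had 3.87 FPKM in the deficient line against 13.1 FPKM in the other. CD34 (2.68 FPKM in the deficient line, 0.719 FPKM in the other) and ENG (11.9 FPKM in the deficient line, 4.58 FPKM in the other), chosen likewise, were higher. These picks give no share of endothelial genes in either direction. In the authors' deposited table adjusted p-values were 9.55e-10 for NOS3, 4.34e-09 for PDE2A and 1.07e-06 for GJA4. Of 5 phosphodiesterase genes with a row 2 were higher, PDE2A by the rule, and 3 lower, beside 53.5% higher over all listed genes.

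Among 6 members that act on lipids, sugars or small molecules, GBGT1 had the highest level. GBGT1, a glycosyltransferase of the Forssman glycolipid family, had 4.29 FPKM in the deficient line against 0.0790 FPKM in the BRCA1-expressing line, a 54.3-fold ratio. LMF1, a factor of the endoplasmic reticulum needed to fold lipoprotein lipase, had 2.05 FPKM in the deficient line and was listed at 0 in the other. OSBPL5, which exchanges lipids where the endoplasmic reticulum meets the plasma membrane, had 1.78 FPKM in the deficient line against 0.0875 FPKM in the other. Its relative OSBPL10 was lower, at 9.04 FPKM in the deficient line against 23.5 FPKM in the other. ABHD12B, a predicted hydrolase, had 1.32 FPKM in the deficient line against 0.0545 FPKM in the other. The ABHD12B locus overlaps that of PYGL, at 235 FPKM in the deficient line against 122 FPKM in the other, and any effect on its reads was not tested. LCN10, a lipocalin, had 1.25 FPKM in the deficient line against 0.0582 FPKM in the other. SULT1A4, a sulfotransferase of catecholamines, had 1.14 FPKM in the deficient line against 0.180 FPKM in the other, and its copy SULT1A3 is near-identical. GBGT1, LMF1, LCN10 and SULT1A4 share exons with another annotated gene on their strand, so part of their reads could belong to those genes. With HOXC4 that makes 5 of 32 members (15.6%), beside 13.1% of all listed genes.

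The vesicle release genes RPH3AL and SYT13 were on as well. RPH3AL, a Rab effector of regulated exocytosis, had 2.63 FPKM in the deficient line and was listed at 0 in the BRCA1-expressing line. SYT13, an atypical synaptotagmin, had 1.201 FPKM in the deficient line against 0.103 FPKM in the other. Of the 6 synaptotagmin and synaptotagmin-like genes with a row 4 were higher, SYT13 by the rule, and 2 lower, beside 53.5% higher over all listed genes. The last 5 members were not placed in any of the groups above. C1orf61 had 3.13 FPKM in the deficient line against 0.0150 FPKM in the other, the largest ratio of the set at 209-fold. C10orf82 had 1.82 and 0.175 FPKM in the deficient and the BRCA1-expressing line. SH3TC1, which carries an SH3 domain, had 1.60 FPKM in the deficient line against 0.131 FPKM in the other, while its relative SH3TC2 was lower, at 4.88 FPKM in the deficient line against 12.6 FPKM in the other. MARCHF10, a ubiquitin ligase of the membrane-associated RING family whose symbol was stored as a date, had 1.201 FPKM in the deficient line against 0.117 FPKM in the other. An assembled locus with no gene ID, on an unplaced scaffold, had 1.39 FPKM in the deficient line against 0.177 FPKM in the other.

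**Figure D3:**
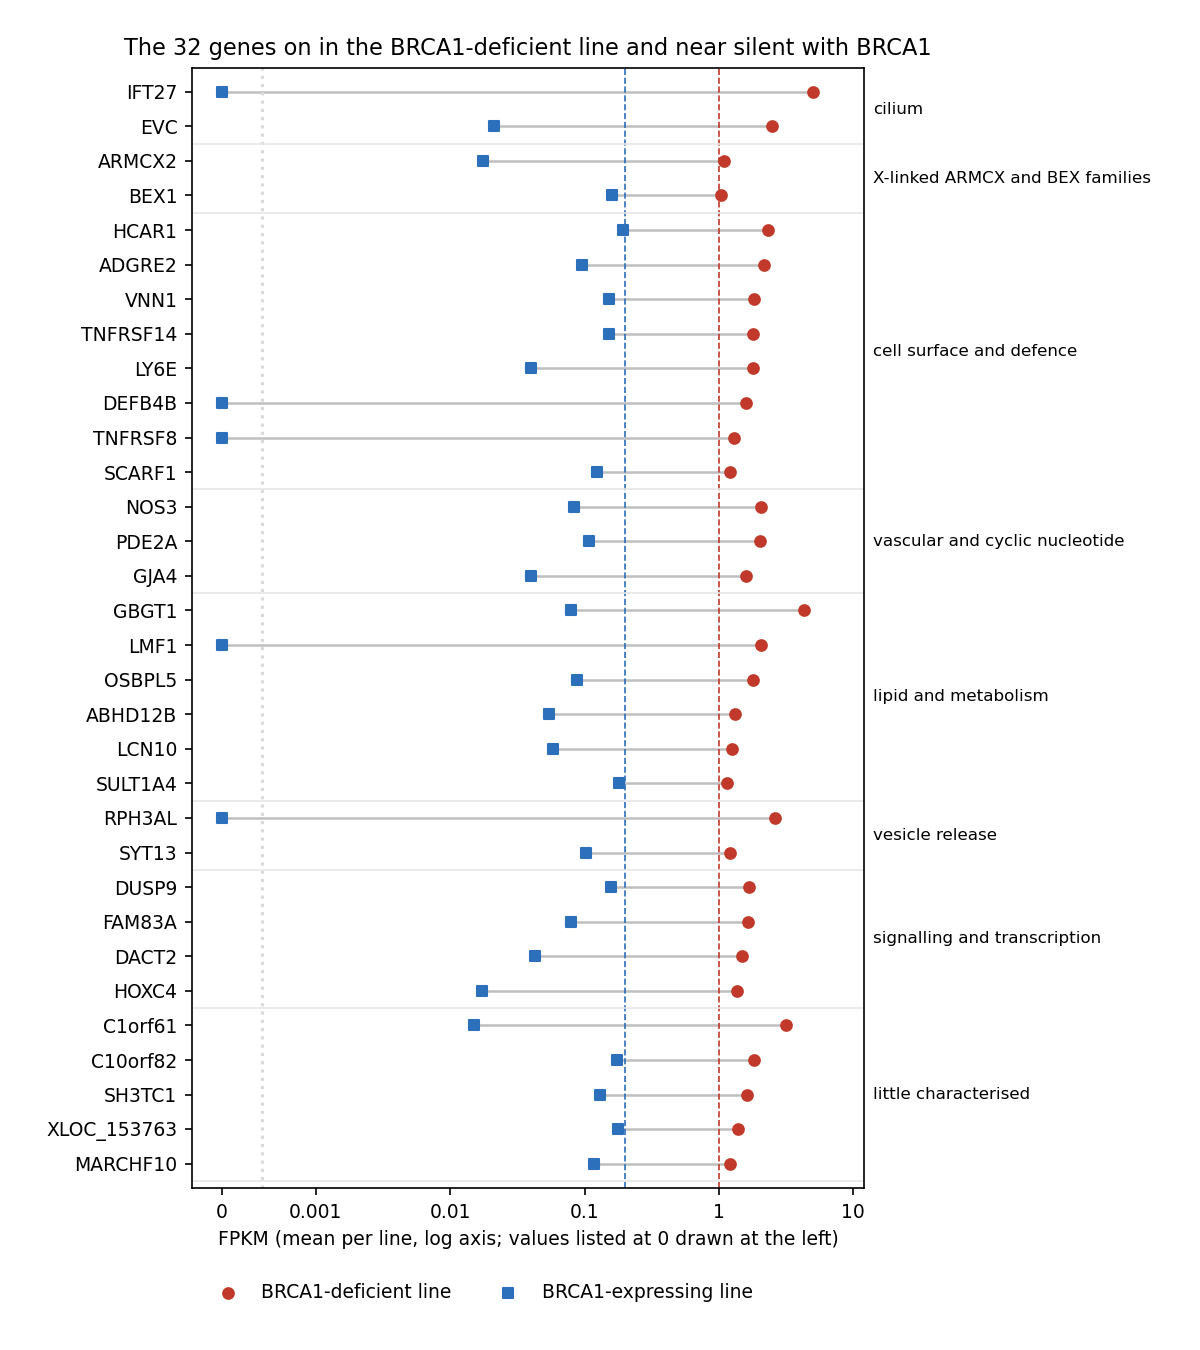
FPKM of each member in the BRCA1-deficient line (red circles) and the BRCA1-expressing line (blue squares) on a log axis, grouped by role, with values listed at 0 drawn at the left and dashed lines at 1 and 0.2 FPKM. The circles lie within 1.03 to 5.03 FPKM, while the squares spread from 0 to 0.194 FPKM, with 5 members listed at 0.

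The thresholds cut through a continuum. Just inside 1 FPKM were BEX1, ARMCX2 and SULT1A4, at 1.03, 1.10 and 1.14 FPKM in the deficient line, and just outside it were UCN2, APCDD1L and CORO2B, at 0.989, 0.954 and 0.943 FPKM. Just inside 0.2 FPKM were HCAR1, SULT1A4 and the assembled locus, at 0.194, 0.180 and 0.177 FPKM in the BRCA1-expressing line, and just outside it were EBF4, SH2D2A and IL12RB2, at 0.220, 0.222 and 0.226 FPKM. Beyond the 5 members listed at 0, the ratio of FPKM in the other 27 had a median of 20.4-fold and a range from 6.35-fold for SULT1A4 to 209-fold for C1orf61. On the scale of log2(FPKM + 1), where changes of low genes appear smaller, 27 of 32 members were at least 2-fold higher in the deficient line, beside 25.3% of all listed genes, a share that the rule itself largely fixes. The members' median difference on that scale was 1.28, within a range from 0.81 for BEX1 to 2.59 for IFT27.

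The authors' adjusted p-values for the members ran from 4.31e-29 to 0.00216 in their deposited table, and 12 of the 32 were among the 100 lowest of the 1806. All 32 were past the authors' threshold, as 6.99% of all features they tested were, because every listed gene is, and all 32 were higher in the deficient line by the authors' fold, as the rule requires, beside 53.5% of listed genes. Their fold departed from the FPKM ratio by more than 1 on the log2 scale in 5 of the 27 members above 0 in both lines (18.5%), beside 2.46% of the 1704 listed genes above 0 in both. C1orf61, ADGRE2 and ABHD12B had a larger FPKM ratio than fold, and ARMCX2 and the assembled locus a smaller one. For ARMCX2 the log2 FPKM ratio was 5.97, and the authors' deposited table gave a log2 fold change of 7.001. For ADGRE2 these were 4.50 and 3.32. The size of a member's change thus depends on which of the values is read, while the direction was the same in both.

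**Figure D4:**
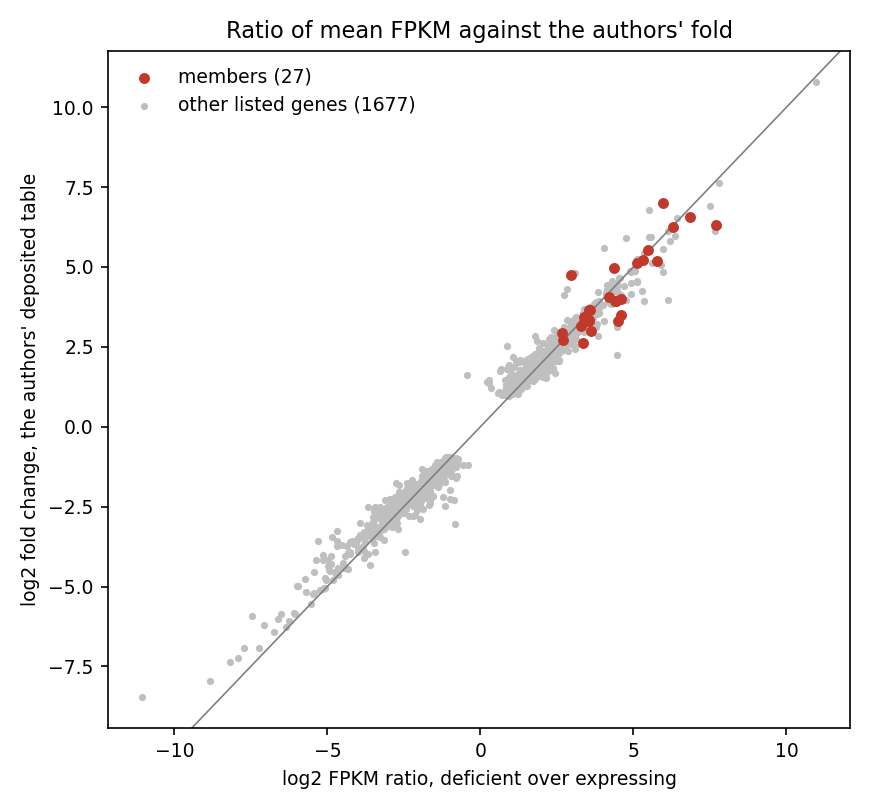
Log2 ratio of mean FPKM (horizontal) against the log2 fold change in the authors' deposited table (vertical), deficient over BRCA1-expressing, for the 27 members (red) and the other listed genes (grey) above 0 in both lines; the line marks equal values. Members lie on both sides of the line, by up to 1.76 for the assembled locus.

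The members were spread over 15 chromosomes, with 4 on chromosome 1 and at most 3 on any other. Members that lie within 3 Mb of each other were RPH3AL and SCARF1 (1.25 Mb apart), ARMCX2 and BEX1, and EVC and SH3TC1 (2.37 Mb apart). Other listed genes lay within 1 Mb of 29 of the 32 members (90.6%), beside 87.7% of all listed genes higher in the deficient line and 64.9% of the mirror set. The members' neighbours, each counted once, numbered 122, of which 101 (82.8%) were higher in the deficient line. From all listed genes that were higher in the deficient line, the same window gave 75.1% higher, and from all listed lower genes 35.8%, with 48.9% from the mirror set. Neighbours of higher genes were thus mostly higher over all such genes as well as around the members. By member, listed neighbours were all higher for 18, all lower for ARMCX2, BEX1 and VNN1, and of both directions for 8. LCN10 had the most, 17, all higher. DUSP9 had 10 higher and 4 lower, and the lower ones were the cancer-testis antigen genes MAGEA1, MAGEA3, MAGEA6 and MAGEA12.

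Members had GC-rich transcripts, as did listed genes higher in the deficient line in general. The longest transcript of 31 members had a median GC content of 57.6%, from 39.7% for VNN1 to 65.6% for DUSP9. The median was 58.0% for the 960 higher genes with a transcript, 45.2% for 36 genes of the mirror set and 44.1% for the 836 lower genes. GC content thus moved with direction across the whole table, and its part in the members' values was not tested. The members' transcripts had a median length of 3338 bases, beside 3742 bases over all listed genes.

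**Figure D5:**
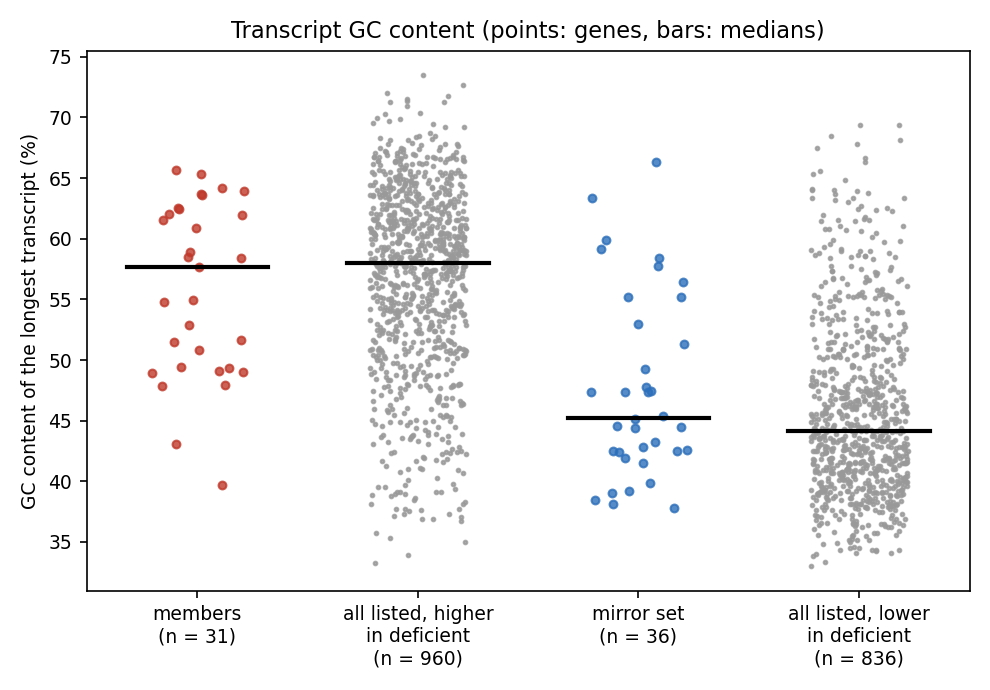
GC content of the longest annotated transcript for the members, all listed genes higher in the deficient line, the mirror set and all listed genes lower in it (points are genes, bars are medians). The members' median of 57.6% is close to the 58.0% of all higher genes, and the mirror set's 45.2% is close to the 44.1% of all lower genes.

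Further lists gave a setting for these genes and held no member. Of 22 DNA methylation and Polycomb genes 2 had a row, UHRF1, which guides maintenance methylation, at 21.4 FPKM in the deficient line against 12.6 FPKM in the other, and the demethylating enzyme TET1 at 0.233 FPKM in the deficient line against 0.711 FPKM in the other. The methyltransferases in that list had no row and were not analysed here. Of 45 axon guidance genes 15 were listed, of which 10 were higher and 5 lower, at a median log2 difference of 0.62. Of all features the authors tested, a wider base than protein-coding genes, 6.99% passed their threshold, and of the listed genes 53.5% were higher. UNC5A, a netrin receptor, had 3.28 FPKM in the deficient line against 0.230 FPKM in the other. Among potassium, sodium and calcium channel subunits 20 were listed, of which 11 were higher and 9 lower, at a median of 0.11. Of 36 muscle contractile genes 3 were listed, of which 1 was higher and 2 lower, at a median of -1.97. The median over all listed genes was 0.20.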

How the data were processed

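Total RNA from 2 lines, 1 sample each, was depleted of ribosomal RNA and made into strand-specific libraries, per the labels' protocols. The authors deposited FPKM as a mean per line, and each value times 3 ends at the 6th decimal, so each appears to average 3 values. The log2 fold changes (deficient over BRCA1-expressing), p-values and adjusted p-values were computed by the authors, per the file headers. Their test, and whether counting used strand, are not given in the sources used. Per the submitters' processing notes the tools were HISAT2 and StringTie 1.3.3b and the build mm9. The IDs are human, and all 1799 IDs found in GENCODE release 29 overlap their GRCh38 gene, so coordinates were read as GRCh38. Read as Benjamini-Hochberg values, the deposited adjusted p-values imply 38868 tested features, of which 2716 (6.99%) passed. The 1806 listed genes are part of these. The depth is unknown, since no read totals were used.

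Members and gene lists were chosen with earlier results of these data known. With 1 sample per line no test was made, and differences are log2(FPKM + 1), deficient minus BRCA1-expressing. All members are named, with some of their listed relatives and some of their listed neighbours within 1 Mb. "Higher" and "lower" follow the authors' fold, for genes that passed their adjusted p of 0.05. Reported motif shares cover 27305 RefSeq promoters. Other thresholds, pseudocounts and scalings were tried. Python 3.11.15, numpy 2.4.6, pandas 2.3.3 and matplotlib 3.10.9 were used.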

Additional observations from a re-analysis of the deposited data

How the results depend on the processing

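The size of the set depends on the thresholds. It was 32 genes as chosen, 19 with the BRCA1-expressing line below 0.1 FPKM and 55 below 0.3 FPKM, and 87 with the deficient line at 0.5 FPKM or more and 10 at 2 FPKM or more. With both columns at equal totals over the listed genes, which are not library totals, the set held 23 genes. It then lacked ARMCX2, BEX1, ABHD12B, LCN10, MARCHF10, SCARF1, SULT1A4, SYT13 and TNFRSF8. It held 32 at an adjusted p of at most 0.01, 41 with no exclusions and 31 with protein-coding genes only. Without members that share exons with or copy another gene, an alternative added after seeing the data, it held 26. The median log2 difference of 1.28 was 3.33 with a pseudocount of 0.1, 4.29 with 0.01 and 1.02 at equal totals, which shift the deficient line by -0.43. At least 2-fold differences were found for 27 members, for 32 with a pseudocount of 0.1, and 4-fold differences for 3. No paired analysis was possible because only a mean per line was used, and for the same reason no replicate could be left out. FPKM means carry no read counts, so how far a value near 0 can be told from 0 is unknown.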
